A study of Mus musculus with 24 samples.

Results

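The genes described are 32 genes of cholesterol and fatty acid synthesis, taken as the entries of the deposited gene table whose name equalled a listed symbol, out of 54532 genes in all. They comprise 18 enzymes of the sterol arm, 9 enzymes of the fatty acid arm, and 5 regulators or carriers (Srebf1, Srebf2, Scap, Insig1 and Stard4). RNA was measured in 24 polyA libraries of mouse macrophages (BMDMs, cultured from marrow in supernatant of L929 cells) and dendritic cells (BMDCs, cultured from marrow in GM-CSF plus IL-4), in 8 groups of 3. The labels name the genotypes WT and CRE. Per the series description and the methods, both kinds of mice carried floxed alleles (fl/fl) of Tmem173, the gene of the innate immune adaptor STING, and received tamoxifen, and the mice labelled CRE also carried Lyz2-Cre ert2, a tamoxifen-inducible Cre under the promoter of the myeloid gene Lyz2. Deletion therefore depends on Lyz2 activity and on induction. Cells were left without agonist (control) or given DMXAA, which activates mouse STING, at 40 µM per the series description. The study's methods give doses in µg/mL, so the concentration is uncertain. Ages in the methods belong to the tamoxifen injections, and the exposure time of these libraries is not given in the sources used here.

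Cells make cholesterol from acetyl-CoA through mevalonate, squalene and lanosterol, and fatty acids from the same acetyl-CoA through malonyl-CoA. Transcription of both arms is driven by the SREBP factors, of which SREBP-2 (Srebf2) mainly serves sterol genes and SREBP-1 (Srebf1) mainly serves fatty acid genes. Scap carries the SREBP precursors from the endoplasmic reticulum to the Golgi for cleavage, and Insig1 retains Scap when sterols are plentiful. In macrophages and dendritic cells, interferon and 25-hydroxycholesterol, the product of the enzyme encoded by Ch25h, are known to restrain this programme.

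Promoter sequence in RefSeq (GRCm38.p6) was available for 25 of the 32 genes. The 250 bases before the annotated start are shown for 5 of them, chosen to cover both arms and the regulators. Each is printed 5′ to 3′ on the strand of the gene, and capitals mark the sterol regulatory element TCACNCCAC, its shorter core CACCCCAC, which can lie within it, and the CCAAT box, searched on both strands. The windows are Hmgcs1 chr13:119690101-119690350 (plus strand), Acat2 chr17:12960726-12960975 (minus), Cyp51 chr5:4104698-4104947 (minus), Fasn chr11:120824548-120824797 (minus) and Insig1 chr5:28071162-28071411 (plus).
Hmgcs1: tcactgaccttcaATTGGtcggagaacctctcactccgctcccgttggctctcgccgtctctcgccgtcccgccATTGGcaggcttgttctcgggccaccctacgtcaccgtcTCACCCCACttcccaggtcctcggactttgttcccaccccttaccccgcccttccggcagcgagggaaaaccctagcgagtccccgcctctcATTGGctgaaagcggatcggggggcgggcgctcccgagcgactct
Acat2: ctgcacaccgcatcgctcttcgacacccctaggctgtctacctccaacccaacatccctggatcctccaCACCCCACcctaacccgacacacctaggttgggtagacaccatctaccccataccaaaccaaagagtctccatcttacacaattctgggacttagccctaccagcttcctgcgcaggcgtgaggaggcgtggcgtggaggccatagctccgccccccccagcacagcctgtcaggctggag
Cyp51: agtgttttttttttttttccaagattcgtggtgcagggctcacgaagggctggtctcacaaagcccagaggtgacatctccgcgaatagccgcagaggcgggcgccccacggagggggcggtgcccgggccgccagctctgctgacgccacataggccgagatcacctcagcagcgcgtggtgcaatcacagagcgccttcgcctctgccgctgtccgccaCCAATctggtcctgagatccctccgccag
Fasn: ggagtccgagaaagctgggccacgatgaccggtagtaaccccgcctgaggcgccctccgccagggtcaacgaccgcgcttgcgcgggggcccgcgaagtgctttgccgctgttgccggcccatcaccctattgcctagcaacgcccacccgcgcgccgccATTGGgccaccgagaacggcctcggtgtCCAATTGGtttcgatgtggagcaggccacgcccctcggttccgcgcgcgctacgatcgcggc
Insig1: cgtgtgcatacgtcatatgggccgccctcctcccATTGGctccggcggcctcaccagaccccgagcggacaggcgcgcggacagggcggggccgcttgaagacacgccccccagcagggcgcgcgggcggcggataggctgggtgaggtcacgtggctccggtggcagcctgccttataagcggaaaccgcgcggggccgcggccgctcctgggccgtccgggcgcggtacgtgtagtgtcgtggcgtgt
The element TCACNCCAC was found in 1 of the 25 genes, Hmgcs1, where it begins 137 bases before the start, and in 1.05% of all 32851 promoter windows of the same length. The core CACCCCAC was found in Hmgcs1 and Acat2 and in 2.58% of all windows. A CCAAT box was present in 19 of the 25 genes, 14 of them in the sterol arm, and in 62.5% of their 32 windows against 33.8% of all windows. The GC box GGGCGG was present in 21 genes (71.9% of windows against 32.7%) and the E-box CACGTG in 5 (15.6% against 6.02%). These are matches of letters in a window and do not show binding.

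Some libraries stood apart from their groups. The 4 BMDM libraries numbered 3 lacked macrophage transcripts, with a median over 10 markers of at most 1.08 CPM (counts scaled to library size) against at least 573.8 CPM in the other 8. Their fibroblast list of 10 markers summed to at least 15930 CPM, against at most 918.6 in the other 8. They are therefore described apart, and the BMDM tests used the libraries numbered 1 and 2. Both WT-labelled BMDM libraries numbered 2 held more fibroblast RNA (918.6 and 775.1 CPM) than the other 6 (66.8 to 132.8). The CRE-labelled BMDC libraries numbered 2 had less macrophage RNA (2388 and 2149 CPM against at least 6146 in the other BMDC libraries) and more neutrophil RNA (336.3 and 153.2 CPM against at most 21.8). The lower macrophage sum there came mostly from Lyz2 (1296 and 1177 CPM against 4928 to 8108), while Cd68 was higher than in the other BMDC libraries (331.6 and 346.1 CPM). BMDC libraries WT 3 and CRE 1 were closer to each other (SD of log2 differences 0.325 in control and 0.327 under DMXAA) than any pair within a label (at least 0.412 and 0.533), and so were WT 2 and CRE 3 (0.330 and 0.349). Total counts were 15657347 to 18912887 per library. Tmem173 stood at 14.7 and 9.91 FPKM (fragments scaled to gene length and to a library size set by the authors) in WT-labelled and 10.4 and 8.76 in CRE-labelled control BMDMs, and the difference did not pass the test. Under DMXAA it stood at 31.9 and 22.8 FPKM in WT-labelled and 9.12 and 10.1 in CRE-labelled BMDMs, and was called lower in CRE (log2 difference -1.45). Isg15, an interferon-stimulated gene, stood at 4.34 and 13.5 FPKM in WT-labelled and 3.55 and 4.87 in CRE-labelled control BMDMs. Under DMXAA it stood at 3753 and 3678 FPKM in WT-labelled and 1135 and 1263 in CRE-labelled BMDMs. Isg15 and Ifit1, another interferon-stimulated gene, were both called lower in CRE under DMXAA, beside 9.99% of all genes. Scaled to total counts alone, a comparison added after seeing the data, the log2 ratio of DMXAA to control would shift by -0.7089 to -0.2452 in the BMDM pairs numbered 1 and 2 and the BMDC pairs, and 27 to 32 genes would then be lower in each of these pairs, against 21 to 32 in FPKM.

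The first comparison asked how the synthesis genes responded to DMXAA in WT-labelled BMDMs. Most of them fell. Of 31 genes tested, 22 were lower under DMXAA and 0 were higher (edgeR quasi-likelihood test, Benjamini-Hochberg adjusted p under 0.05 over 11569 genes), beside 20.7% of all genes called lower and 18.4% called higher. The median log2 fold change of the 31 was -1.202, against -0.08 over all genes tested. Fdps, farnesyl diphosphate synthase, was the gene not tested, since it stayed below an FPKM of 1 in these 8 libraries. In bulk RNA, fewer cells of a type and less RNA per cell cannot be told apart. The labels do not say whether replicates were separate cultures or animals, so p-values measure the spread between libraries.

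In the sterol arm, 13 of 17 enzymes tested fell. Sqle, squalene epoxidase, which commits squalene to sterols, stood at 24.8 and 17.0 FPKM in control and 3.32 and 4.96 under DMXAA. Its log2 fold change was -2.44 ± 0.25 (SE, n = 2 against 2, edgeR adjusted p = 0.0006006). Both treated libraries lay below both controls. Dhcr7, which reduces 7-dehydrocholesterol at the last step to cholesterol, stood at 8.02 and 4.10 FPKM in control and 1.40 and 1.15 under DMXAA (log2 fold change -2.36 ± 0.31, SE, edgeR adjusted p = 0.001639). Here too the groups did not overlap.

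The other sterol enzymes that fell span the pathway. Acat2, the cytosolic thiolase that makes acetoacetyl-CoA, changed by -2.11 ± 0.34 (log2 fold change, SE), and Hmgcs1, HMG-CoA synthase, by -0.88 ± 0.16. In the mevalonate steps, the log2 fold change was -0.60 for Mvk, -1.30 for Mvd and -1.88 for Idi1. It was -1.26 for Fdft1, squalene synthase, and -1.202 for Lss, lanosterol synthase. Among the enzymes that convert lanosterol it was -1.79 for Cyp51, -1.15 for Msmo1, -1.59 for Hsd17b7 and -1.23 for Sc5d. Pmvk, Tm7sf2, Nsdhl and Ebp did not pass the test, with log2 fold changes of -0.04, -0.46, -0.49 and -0.21.

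In the fatty acid arm, 5 of 9 enzymes fell: Acaca, Fasn, Elovl6, Scd2 and Fads1. Elovl6, which elongates palmitate, had the largest change among all 31 genes. It stood at 1.96 and 1.11 FPKM in control and 0.0413 and 0.140 under DMXAA, with a log2 fold change of -4.12 ± 0.54 (SE, edgeR adjusted p = 0.001671). The treated values rest on 3 and 13 reads, against 258 and 150 in control, so the size of this change is uncertain. Elovl6 and Fads2 entered the BMDM tests only through control libraries, which favours a fall. Without them, 21 of 29 genes fell. Scd2, a stearoyl-CoA desaturase that makes monounsaturated fatty acids, stood at 15.1 and 13.1 FPKM in control and 0.292 and 2.23 under DMXAA. Its log2 fold change was -3.54 ± 0.72 (SE, edgeR adjusted p = 0.008758).

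Fasn, fatty acid synthase, went from 14.5 and 9.08 FPKM to 1.11 and 3.88 (log2 fold change -2.33 ± 0.54, SE). The log2 fold change was -1.15 for Acaca, acetyl-CoA carboxylase 1, and -1.81 for Fads1, the delta-5 desaturase. Acly, which supplies cytosolic acetyl-CoA, and Me1, malic enzyme, which supplies NADPH, did not pass, with log2 fold changes of -0.26 and 0.11. Scd1 and Fads2 did not pass either (-0.82 ± 1.24 and -1.59 ± 0.54, SE). Scd1 was 0.253 and 2.19 FPKM in the control libraries numbered 1 and 2, and the library with 2.19 was the one with fibroblast RNA. Whether that RNA contributed was not tested.

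Among the regulators, 4 of 5 fell. Stard4, a cytosolic sterol carrier whose gene is an SREBP-2 target, stood at 15.5 and 7.51 FPKM in control and 2.22 and 2.03 under DMXAA (log2 fold change -2.54 ± 0.32, SE, edgeR adjusted p = 0.001336). Both treated libraries lay below both controls. Srebf2 changed by -0.95 ± 0.22, Insig1 by -0.84 ± 0.19 and Srebf1 by -0.49 ± 0.13 (log2 fold change, SE). Scap did not pass (-0.27 ± 0.13, SE).

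Other settings moved the count in WT-labelled BMDMs. In the paragraphs below, counts from leaving out single libraries are given without their shares of all genes. When only the WT-labelled libraries entered the fit, 9 of 31 fell, beside 4.1% of all genes. With all 12 BMDM libraries 0 were called, beside 0% of all genes. Markers of dividing cells moved with the genes: 5 of 7 fell, beside 20.7% of all genes. Their median went from 115.7 to 141.4 CPM in the control libraries to 13.7 to 27.5 under DMXAA. Their part in the result was not tested.

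**Figure D1:**
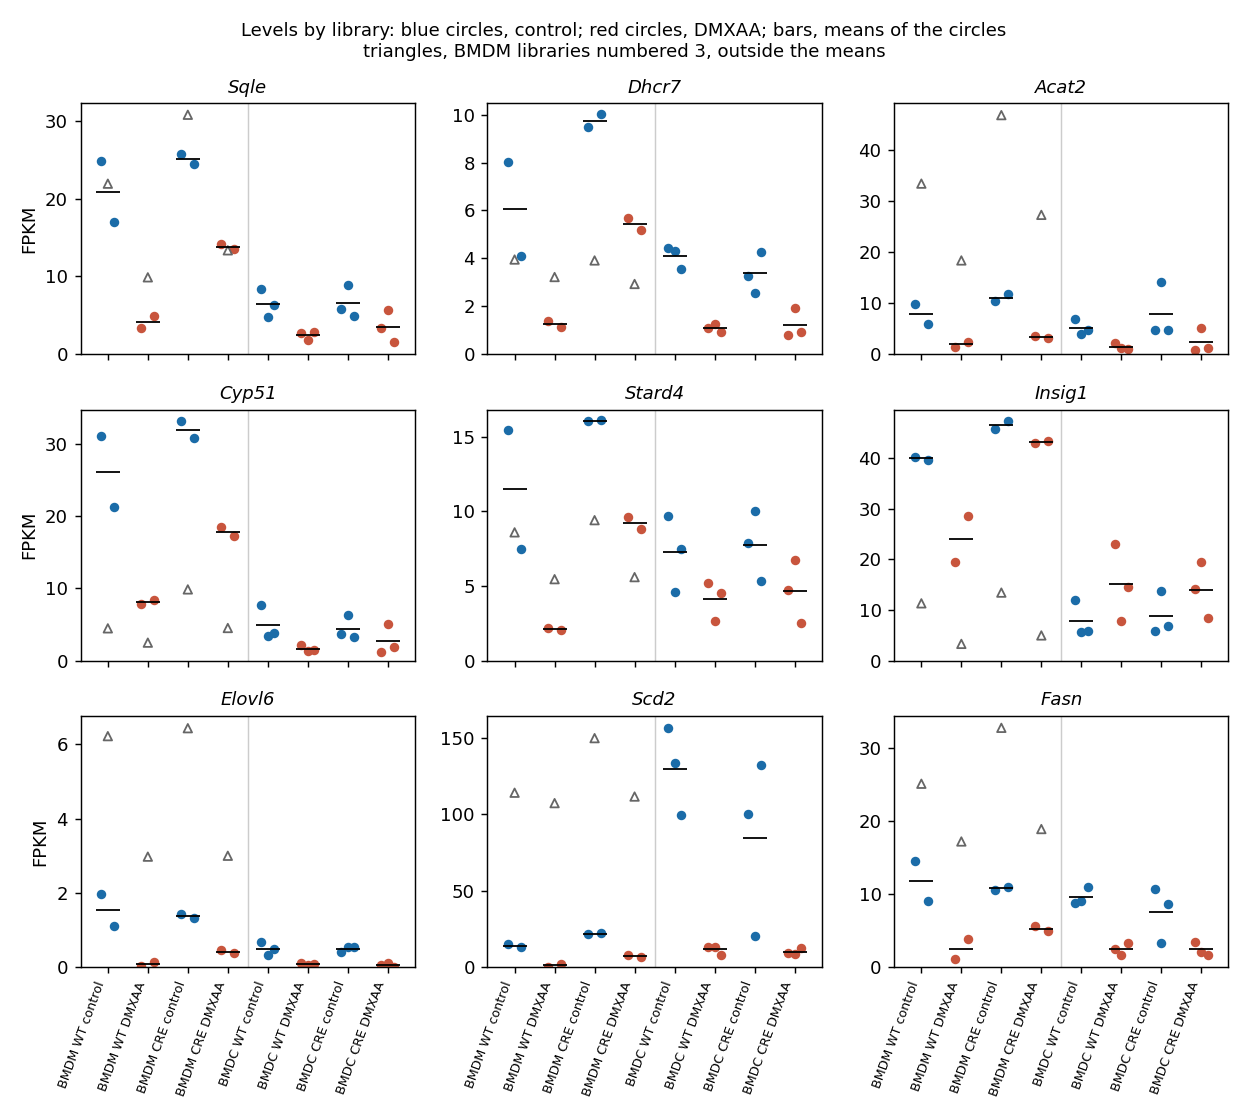
FPKM of 9 genes (vertical axes) in each of the 24 libraries, by group (horizontal axes). Circles are the libraries used in the tests and bars their means, blue for control and red for DMXAA, and triangles are the BMDM libraries numbered 3. Sqle, Dhcr7, Stard4, Scd2 and Elovl6 sit lower under DMXAA in WT-labelled BMDMs with no overlap between groups, and Insig1 sits lower there but not in BMDCs.

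In CRE-labelled BMDMs the same direction was seen in smaller steps. Of the 31 genes 4 fell, all in the sterol arm (Acat2, Mvd, Fdft1 and Cyp51), and 0 rose, beside 2.72% of all genes called lower and 7.28% called higher. Acat2 stood at 10.4 and 11.7 FPKM in control and 3.64 and 3.19 under DMXAA (log2 fold change -1.72 ± 0.33, SE, edgeR adjusted p = 0.02246). Cyp51, lanosterol demethylase, went from 33.2 and 30.8 FPKM to 18.5 and 17.3 (log2 fold change -0.86 ± 0.18, SE, edgeR adjusted p = 0.03065). In both genes the treated libraries lay below the controls.

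Mvd, mevalonate diphosphate decarboxylase, went from 23.3 and 26.6 FPKM to 11.6 and 12.7 (log2 fold change -1.06 ± 0.22, SE). Fdft1 went from 11.4 and 11.9 FPKM to 6.15 and 6.36 (log2 fold change -0.92 ± 0.20, SE). The fitted change was negative for 31 of 31 genes, with a median of -0.69 against -0.01 over all genes.

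This count moved with the spread assumed. The CRE-labelled BMDM libraries were close to each other, their biological coefficient of variation being 5.194%, and 35.09% for the WT label, and both labels shared 1 estimate in the test. With the spread of the CRE-labelled libraries alone, 25 of 31 fell, beside 26.6% of all genes, and without both WT libraries numbered 2 also 25, beside 26.3%. With all 12 BMDM libraries 0 were called, beside 0% of all genes. Leaving out any 1 CRE-labelled BMDM library also left 0. The CRE-labelled pairs still differed by more than counting noise (chi-square per degree of freedom 3.4 in control and 5.321 under DMXAA).

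**Figure D2:**
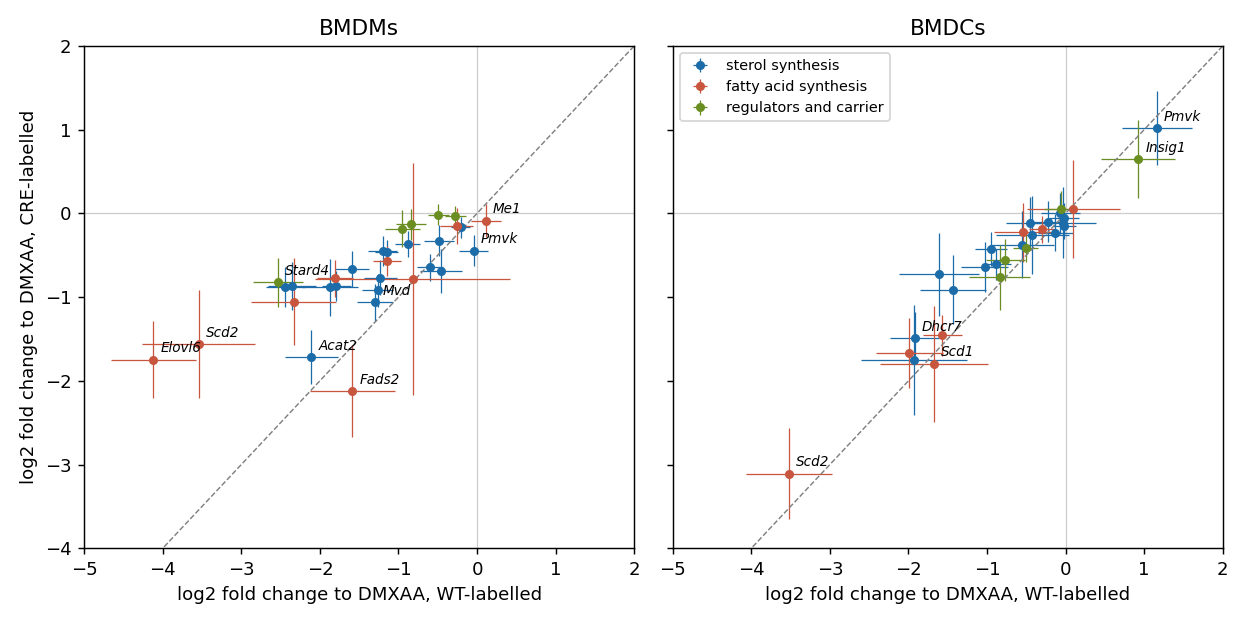
Fitted log2 fold change to DMXAA in CRE-labelled cells (vertical axis) against WT-labelled cells (horizontal axis) for each gene tested, BMDMs left and BMDCs right. Points are coloured by arm, bars are standard errors and the dashed line marks equal change. In BMDMs most points lie above the line, with smaller falls in CRE-labelled cells, and in BMDCs they lie near it.

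Set against each other under DMXAA, CRE-labelled BMDMs held more RNA of the synthesis genes than WT-labelled BMDMs. Of 31 genes, 14 were higher and 1 was lower, beside 9.26% and 9.99% of all genes called higher and lower. Without Elovl6 and Fads2 the higher count was 13 of 29. Both this comparison and the WT response use the WT-labelled DMXAA libraries, so they are not independent. The 7 sterol enzymes that were higher were Hmgcs1, Sqle, Lss, Cyp51, Msmo1, Hsd17b7 and Dhcr7, and the 4 fatty acid enzymes were Acaca, Elovl6, Scd2 and Fads1. Srebf2, Insig1 and Stard4 were also higher.

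Scd2 differed most, at 8.11 and 6.88 FPKM in CRE against 0.292 and 2.23 in WT under DMXAA (log2 difference 2.58 ± 0.70, SE, edgeR adjusted p = 0.04517). Elovl6 was 0.468 and 0.366 FPKM against 0.0413 and 0.140 (2.18 ± 0.54, SE, edgeR adjusted p = 0.03455), from 50 and 38 reads against 3 and 13. Stard4 was 9.61 and 8.84 FPKM against 2.22 and 2.03 (2.17 ± 0.31, SE, edgeR adjusted p = 0.006223). These groups did not overlap.

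Dhcr7 was 5.67 and 5.17 FPKM against 1.40 and 1.15 (log2 difference 2.14 ± 0.31, SE, edgeR adjusted p = 0.006081). Sqle was 14.1 and 13.5 FPKM against 3.32 and 4.96 (1.78 ± 0.25, SE, edgeR adjusted p = 0.005429). Me1 was the gene that was lower, at 2.63 and 2.32 FPKM in CRE against 3.95 and 5.20 in WT (log2 difference -0.84 ± 0.20, SE). Without agonist it also stood lower in CRE, at 2.63 and 2.54 FPKM against 3.91 and 3.95 in WT, though that difference was not called. With all 12 BMDM libraries 0 of 31 were called, beside 0% of all genes, and leaving out either CRE-labelled DMXAA library left 1. Without both WT libraries numbered 2 the count was 24, beside 53.1% of all genes. Each WT group then held 1 library, assumed to vary like the other groups.

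In control BMDMs 0 of 31 genes differed between the labels, beside 0.0432% of all genes. Before adjustment 3 passed 0.05, given without the share of all genes at that threshold. DESeq2 called 1 and limma-voom 0, and leaving out WT library 1 or both WT libraries numbered 2 gave 4 and 8, the latter beside 21.8% of all genes. The test of whether the DMXAA response itself differed between labels called 0 of 31, beside 3.66% of all genes, with 12 of 31 at an unadjusted p under 0.05 against 20.35% of all genes. The nearest were Sqle (difference of log2 fold changes 1.55 ± 0.34, SE, edgeR adjusted p = 0.06016) and Stard4 (1.71 ± 0.42, SE, edgeR adjusted p = 0.08529). DESeq2 called 5 and limma-voom with quality weights 1. Leaving out WT control library 1 or 2, or WT DMXAA library 2, gave 1, 9 and 5. With the library number as a replicate block within each label, 8 were called (Idi1, Sqle, Cyp51, Msmo1, Dhcr7, Fads1, Srebf2 and Stard4), beside 14.7% of all genes. CRE-labelled BMDM libraries of the same number did not deviate together (r = 0.03101), so this block is not read as pairing. Without both WT libraries numbered 2 the count was 22, beside 46.1% of all genes.

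The BMDM libraries numbered 3 give values without a replicate, since 1 library stood for each group. Among 10262 genes that reached an FPKM of 1 in both control libraries, 1.13% were at least 1.5-fold lower under DMXAA in both labels and 1.8% at least 1.5-fold higher. Of the 31 synthesis genes in that set, 14 were lower by that measure and 0 higher. A minimum in the control libraries favours falls, for all genes alike. When the minimum was instead set on the mean of the 4 libraries, a choice made after seeing the data, 13 of 30 synthesis genes were lower in both labels, beside 1.07% of all genes, and Fdps (1.01 and 1.09 FPKM in control, 0.430 and 0.359 under DMXAA) was then left out. The 14 included 11 of 17 sterol enzymes, 1 of 9 fatty acid enzymes (Elovl6) and 2 of 5 regulators (Insig1 and Stard4).

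Insig1 was 11.3 FPKM in the WT control library numbered 3 and 3.30 under DMXAA, and 13.4 and 4.97 in the CRE pair. Idi1, isopentenyl diphosphate isomerase, went from 6.68 to 2.78 FPKM in the WT pair and from 10.3 to 2.88 in the CRE pair. Of the 5 fatty acid genes that fell in the other BMDMs, Elovl6 was lower by 2.092-fold with the WT label and 2.146-fold with the CRE label, and Fasn by 1.46-fold and 1.734-fold. For Scd2 the fold of control over DMXAA was 1.064 and 1.342, for Fads1 1.029 and 1.071, and for Acaca 1.015 and 1.122. The median fold by which control exceeded DMXAA was 1.705 in the sterol arm and 1.144 in the fatty acid arm with the WT label, and 1.694 and 1.206 with the CRE label. In these libraries Scd1 stood at 18.6 to 20.4 FPKM in control, against 0.253 to 2.19 in the other BMDM controls, and Me1 at 26.4 to 32.2 against 2.54 to 3.95.

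**Figure D3:**
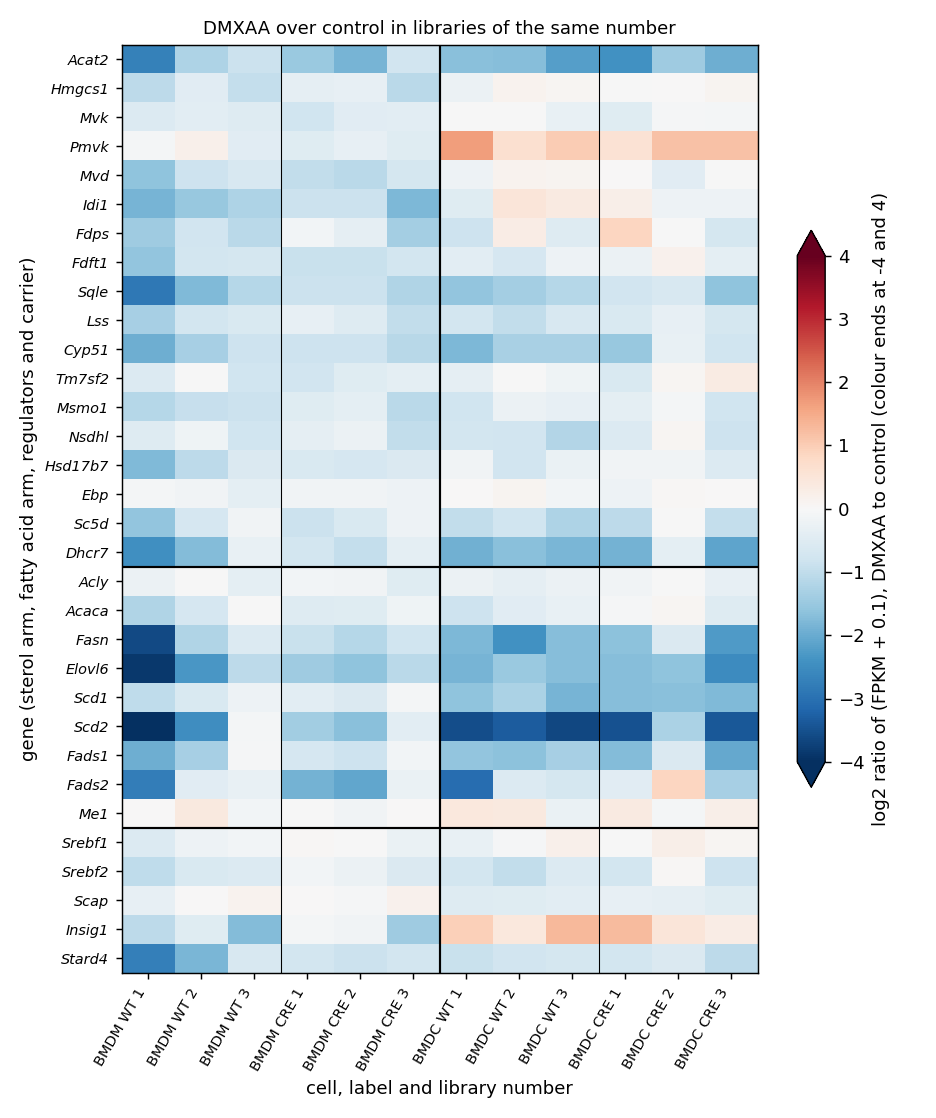
Log2 ratio of (FPKM + 0.1) under DMXAA to control for the 32 genes (vertical axis, in pathway order) in each pair of libraries of the same cell, label and number (horizontal axis), with blue for lower and red for higher under DMXAA and colour ending at -4 and 4. All 18 sterol genes are lower in 5 of the 6 BMDM pairs and 17 of 18 in the WT pair numbered 2, while Pmvk and Insig1 are higher in the 6 BMDC pairs.

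In WT-labelled BMDCs, 12 of 29 genes fell under DMXAA and 0 rose, beside 15.2% of all genes called lower and 17% called higher. Fdps, Elovl6 and Fads2 were below the filter in BMDCs. By arm, 7 of 17 sterol enzymes, 3 of 7 fatty acid enzymes and 2 of 5 regulators passed. Their median log2 fold changes were -0.45, -1.57 and -0.51, against 0.01 over all genes. Leaving out control library 1 or DMXAA library 2 left 7 genes.

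Scd2 was the most abundant of the 32 genes in WT control BMDCs, at 156, 133 and 99.6 FPKM, and fell to 13.2, 13.3 and 7.94 under DMXAA. Its log2 fold change was -3.52 ± 0.55 (SE, n = 3 against 3, edgeR adjusted p = 0.0006249). Every treated library lay far below every control. Fasn went from 8.81, 9.05 and 11 FPKM to 2.46, 1.61 and 3.33 (log2 fold change -1.99 ± 0.42, SE, edgeR adjusted p = 0.004115). Acat2 went from 6.91, 3.92 and 4.68 FPKM to 2.09, 1.14 and 0.938 (-1.93 ± 0.67, SE, edgeR adjusted p = 0.04708). Neither gene overlapped between groups.

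Dhcr7 went from 4.43, 4.30 and 3.56 FPKM to 1.09, 1.28 and 0.923 (log2 fold change -1.92 ± 0.32, SE, edgeR adjusted p = 0.0008955). Cyp51 went from 7.73, 3.43 and 3.85 FPKM to 2.15, 1.32 and 1.52 (-1.61 ± 0.51, SE, edgeR adjusted p = 0.03141). The remaining genes that fell were Fads1 (-1.57), Sqle (-1.43), Sc5d (-1.03), Nsdhl (-0.95), Lss (-0.88), Srebf2 (-0.77) and Scap (-0.51), each a log2 fold change. Hmgcs1, Mvd and Idi1, which fell in WT-labelled BMDMs, had log2 fold changes of -0.07, -0.01 and -0.03 in WT-labelled BMDCs and did not pass. Lss and Hsd17b7 entered the BMDC tests only through control libraries, which favours a fall. Without them 11 of 27 genes fell with the WT label and 4 of 27 with the CRE label.

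In CRE-labelled BMDCs 5 of 29 genes fell (Lss, Dhcr7, Fasn, Scd2 and Fads1) and 0 rose, beside 11.4% of all genes called lower and 14% called higher. Leaving out control library 1 or DMXAA library 3 left 3 genes, and leaving out DMXAA library 2 left 10. Scd2 went from 100, 20.4 and 132 FPKM to 8.95, 8.41 and 12.5 (log2 fold change -3.11 ± 0.54, SE, edgeR adjusted p = 0.001665). The control library with 20.4 was the one numbered 2, with neutrophil transcripts, and it still lay above every treated library. Fasn went from 10.7, 3.23 and 8.6 FPKM to 3.39, 2.11 and 1.71 (-1.67 ± 0.42, SE, edgeR adjusted p = 0.01283), and here the groups overlapped through the control library numbered 2.

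Dhcr7 went from 3.28, 2.56 and 4.27 FPKM to 0.813, 1.94 and 0.918 (log2 fold change -1.49 ± 0.31, SE, edgeR adjusted p = 0.005036). Fads1 went from 7.76, 6.13 and 8.95 FPKM to 2.28, 4.11 and 2.08 (-1.46 ± 0.24, SE, edgeR adjusted p = 0.001333). Lss went from 1.52, 1.40 and 1.28 FPKM to 0.963, 1.10 and 0.739 (-0.61 ± 0.18, SE, edgeR adjusted p = 0.03134). None of these 3 genes overlapped between groups. Without both CRE-labelled BMDC libraries numbered 2, 10 genes fell, beside 14.6% of all genes.

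In BMDCs, control and DMXAA libraries of the same label and number deviated together, so a replicate block within each label was also fitted. In WT-labelled BMDCs it called 17 of 29 genes lower and 2 higher, beside 24.2% and 24.6% of all genes, and in CRE-labelled BMDCs 13 lower and 2 higher, beside 21% and 21.7%. The 2 that rose under the block were Pmvk and Insig1 in both labels. Pmvk, phosphomevalonate kinase, was 5.54, 5.38 and 4.87 FPKM in WT control and 17.7, 8.35 and 10 under DMXAA. Its blocked log2 fold change was 1.10 ± 0.21 (SE, edgeR adjusted p = 0.001937), against 1.16 ± 0.44 (SE, edgeR adjusted p = 0.06732) without the block.

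Insig1 was 11.9, 5.71 and 5.86 FPKM in WT control BMDCs and 23.1, 7.72 and 14.6 under DMXAA, higher within each of the 3 numbers although the groups overlapped. Scaled to total counts alone, Insig1 was not higher in the CRE pair numbered 3. Its blocked log2 fold change was 0.88 ± 0.21 (SE, edgeR adjusted p = 0.006388), and without the block it was 0.92 ± 0.47 (SE, edgeR adjusted p = 0.1614). Scd1 passed under the block in both labels, with log2 fold changes of -1.68 and -1.82. The BMDC division markers also moved without the block. In WT 5 of 7 were lower, beside 15.2% of all genes, and in CRE 4 of 7, beside 11.4%. Their part was not tested.

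Between the genotype labels, 0 of 29 genes differed in BMDCs in control, 0 under DMXAA and 0 in the test of the response, beside 0% of all genes in each comparison. DESeq2 and limma-voom also called 0 of the 29. At an unadjusted p under 0.05 there was 1 gene under DMXAA and 0 in the other comparisons, given without the share of all genes. For Scd2 the difference between the log2 fold changes of the labels was 0.42 ± 0.71 (SE). The labels are in doubt in these libraries, given the closeness of WT 3 to CRE 1 and of WT 2 to CRE 3. Tmem173 overlapped between the labels in control (28.8 to 51.6 FPKM in WT, 19.7 to 36.9 in CRE), and so did Isg15 under DMXAA (2321 to 3183 and 2153 to 2575 FPKM).

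The arms can be set side by side by their medians. With the WT label the median log2 fold change was -1.23 in the sterol arm and -1.59 in the fatty acid arm in BMDMs, and -0.45 and -1.57 in BMDCs. With the CRE label it was -0.69 and -0.78 in BMDMs, and -0.26 and -1.46 in BMDCs. Within pairs of libraries the sterol median was the lower of the 2 arms in both BMDM pairs numbered 3 (-0.76 against -0.19 with the WT label, -0.76 against -0.27 with the CRE label), and by less in WT 2 (-0.75 against -0.67) and CRE 1 (-0.74 against -0.69). The fatty acid median was the lower in WT 1 (-1.96 against -1.49) and CRE 2 (-0.82 against -0.56). The BMDM libraries of WT 2 held more fibroblast RNA, and its part in the order of the arms was not tested. In each of the 6 BMDC pairs the fatty acid median was the lower. These medians are descriptions of lists of 7 to 18 genes, and the difference between arms was not tested.

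Of 29 genes tested in both cell types, 10 fell in WT-labelled cells of both: Acat2, Sqle, Lss, Cyp51, Sc5d, Dhcr7, Fasn, Scd2, Fads1 and Srebf2. These are 45.5% of those that fell in BMDMs and 83.3% of those that fell in BMDCs. Over all 10865 genes tested in both, 11% (1197) fell in both. For the same shares over all genes, these 1197 stand beside 2397 that fell in BMDMs and 1848 that fell in BMDCs. Lss entered the BMDC tests only through control libraries. The test of the cell type difference in the DMXAA response called 1 of 31 genes, beside 2.61% of all genes. That gene was Mvd, which went from 18.6 and 16.6 FPKM to 5.99 and 9.38 in WT-labelled BMDMs and from 32.1, 27.1 and 25.1 to 27.9, 29.7 and 27.1 in WT-labelled BMDCs (difference of log2 fold changes 1.31 ± 0.26, SE, edgeR adjusted p = 0.01445). The call was lost when only the compared groups, or all 12 BMDM libraries, entered the fit, and when either WT-labelled BMDM library numbered 1 was left out. Leaving out BMDC WT control library 1 gave 2 genes.

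Untreated cells of the 2 types also differed. In WT control, 17 of 31 genes were lower in BMDCs than in BMDMs and 2 were higher, beside 15.4% and 13.1% of all genes. The sterol arm held 11 of the 17, with a median log2 difference of -1.22 against -0.02 over all genes. Hsd17b7, a sterone reductase, differed by -2.68 ± 0.43 (log2, SE), Cyp51 by -2.45 ± 0.47 and Insig1 by -2.41 ± 0.45. Insig1 was 40.3 and 39.6 FPKM in the BMDM libraries and 5.71 to 11.9 in the BMDC libraries, with no overlap.

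The genes that were higher in BMDCs were Scd2 (log2 difference 3.15 ± 0.71, SE, edgeR adjusted p = 0.00346) and Mvd (0.61 ± 0.19, SE, edgeR adjusted p = 0.02166). Scd2 stood at 15.1 and 13.1 FPKM in the BMDM libraries against 99.6 to 156 in the BMDC libraries. Fads1 and Fads2, the delta-5 and delta-6 desaturases, were lower in BMDCs (-1.95 ± 0.25 and -2.43 ± 0.69, log2, SE). In BMDCs Fads2 reached an FPKM of 1 in 1 library and Elovl6 in 0. Both genes therefore entered the cell type tests only through BMDM libraries, which favours a lower level in BMDCs. The counts for this comparison were not repeated without them. With all 12 BMDM libraries 11 genes were lower, beside 3.5% of all genes, and Scd2 and Mvd were no longer called. Leaving out BMDM WT control library 1 left 10. Cell type and culture medium cannot be told apart here.

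**Figure D4:**
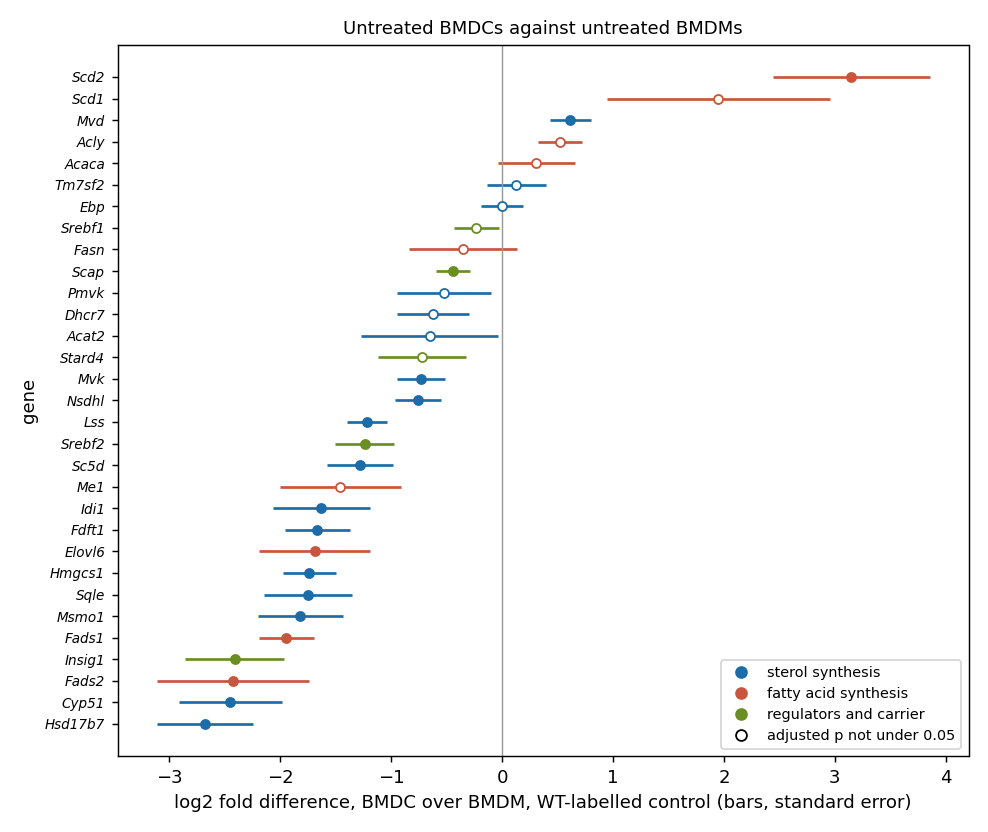
Fitted log2 difference between WT-labelled control BMDCs and BMDMs (horizontal axis) for each of the 31 genes tested (vertical axis, ordered by value), coloured by arm, with bars for the standard error and filled points where the adjusted p was under 0.05. Scd2 and Mvd are the filled points to the right of 0, and 17 filled points lie to the left.

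Other genes of the pathway were read from further lists. Of 9 further synthesis enzymes tested in WT-labelled BMDMs, 4 fell and 2 rose, beside 20.7% of all genes called lower and 18.4% called higher. Elovl5 and Hacd3, of the elongation of longer fatty acids, fell there (log2 fold changes -1.04 and -1.15) and in the other 3 responses too (-0.58 and -0.65 in CRE-labelled BMDMs). Acss2, which makes acetyl-CoA from acetate, was among those that rose, by 2.22 in WT-labelled and 2.05 in CRE-labelled BMDMs on the log2 scale, from at most 0.286 FPKM to 0.756 to 1.21. It entered the tests only through DMXAA libraries, which favours a rise. In WT-labelled BMDCs 3 of 8 fell and 2 rose, beside 15.2% and 17% of all genes, and Lbr, a sterol C14 reductase, changed by -1.65 ± 0.37 (log2 fold change, SE). Slc25a1, the mitochondrial citrate carrier, rose by 1.08.

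Among genes that control SREBP processing, Insig2, a relative of Insig1, rose in BMDCs of both labels (log2 fold changes 1.37 ± 0.20 and 0.89 ± 0.20, SE). Of 10 genes of sterol export, storage and the LXR pathway, 6 rose and 1 fell in WT-labelled BMDMs, beside 18.4% and 20.7% of all genes. In CRE-labelled BMDMs 2 rose and 0 fell, beside 7.28% and 2.72%. Abcg1, a cholesterol exporter, went from 10.5 and 19.5 FPKM to 97.9 and 76.1 in WT-labelled BMDMs (log2 fold change 2.42 ± 0.30, SE). Abca1, the other main exporter, did not pass in any response (log2 fold change 0.01 in WT-labelled BMDMs). In WT-labelled BMDCs 4 of these 10 genes rose and 1 fell, beside 17% and 15.2% of all genes. Nr1h3, the gene of LXR alpha, changed there by 1.23 ± 0.33 (log2 fold change, SE).

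Both oxysterol enzymes tested rose in WT-labelled BMDMs, beside 18.4% of all genes. Ch25h went from 5.77 and 2.39 FPKM to 95.2 and 49.5 under DMXAA (log2 fold change 4.04 ± 0.50, SE, edgeR adjusted p = 0.001263). In CRE-labelled BMDMs it was 2.86 and 1.87 FPKM in control and 1.25 and 1.33 under DMXAA, and the test of the difference between labels passed (-4.93 ± 0.72, SE, edgeR adjusted p = 0.02245). In control BMDCs it already stood at 53.8 to 190 FPKM over the 6 libraries and did not pass in either label. Cyp27a1, sterol 27-hydroxylase, rose in WT-labelled BMDMs (1.18 ± 0.19, log2 fold change, SE) and in BMDCs of both labels (2.26 and 1.91).

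Some values rest on sequence shared with other genes. Transcripts at least 90% identical over more than 150 bases were found for Acat2 (Acat3 and Tcp1), Idi1 (4 loci), Scd1 (Scd2 and Scd3), Acaca, Me1, Hmgcs1 (Gm48342) and Fdft1 (Gm6781 and Ctsb). How reads of such pairs were counted was not examined here, so they may be split, shared or left out. For genes that overlap on opposite strands this also depends on whether counting used the strand, which is not given in the sources used here.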

How the data were processed

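PolyA RNA was sequenced from 24 libraries. Per the submitters' processing notes, CASAVA 1.8, fastp, HISAT2 2.0.5, featureCounts 1.5.0-p3 and DESeq2 1.20.0 were used with GRCm38 (mm10). The authors deposited 1 gene table with raw read counts per gene and library, and with FPKM values scaled to gene length and library size. The library size implied by the deposited FPKM was 0.6866 to 1.331 times the total count, so the values carry a further scaling whose basis is not given in the sources used here. Columns of the authors' own comparisons (fold changes, p-values and means) were not used. Every other per-library column matched 1 sample, and 0 were left unmatched. Whether counting used the strand is not given in the sources used here.

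The deposited counts were tested with the edgeR 4.0.16 quasi-likelihood test (R 4.3.3, TMM scaling, two-sided), with Benjamini-Hochberg adjusted p under 0.05 over all genes tested. Genes needed an FPKM of at least 1 in 2 libraries (BMDM and cell type tests) or 3 (BMDC tests). Groups of a cell type shared 1 estimate of the spread. Group labels were taken from the sample labels, and the BMDM libraries numbered 3 were left out of the tests. Levels are given as deposited FPKM, and ratios within pairs used FPKM plus 0.1. Alternatives were DESeq2 1.42.0, limma 3.58.1 (voom with quality weights), median-of-ratios scaling, other filters, a replicate block, other sets of libraries and leaving out each library. The scripts were tested on simulated data. Shared sequence was searched with minimap2 2.31-r1302, and figures were drawn with matplotlib 3.10.9.

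The members and gene lists were chosen with earlier results of these data known. All 32 genes could be named, with values in every library for the 5 largest changes among the genes called in each response and between labels. In BMDCs, control and DMXAA libraries of the same label and number deviated together (r of at least 0.395 for WT and 0.515 for CRE over 3 numbers each), a pairing that comes from the data and not from the labels. Total counts of 15657347 to 18912887 per library set the counting error, which does not include differences between cultures.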

Additional observations from a re-analysis of the deposited data

Results flagged for a closer look

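In the comparison of DMXAA responses between cell types, Mvd differed between WT-labelled BMDCs and BMDMs by 1.308 on the log2 scale, and this difference passed the test across all genes.

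For 3 further genes every pair of libraries in one group moved one way and every pair in the other moved the opposite way, and the differences were not tested by that measure. Insig1 had a mean log2 ratio of DMXAA to control of -0.7613 in WT-labelled BMDMs and 0.8934 in WT-labelled BMDCs, a difference of 1.655. With the CRE label the Insig1 means were -0.1064 and 0.6897, a difference of 0.7961. Pmvk had means of -0.4093 in CRE-labelled BMDMs and 0.9739 in CRE-labelled BMDCs, a difference of 1.383. Me1 had means of 0.2013 in WT-labelled and -0.06429 in CRE-labelled BMDMs, and the difference of CRE minus WT was -0.2656. These directions are those in FPKM. Scaled to total counts alone, Me1 was lower in the WT-labelled BMDM pairs numbered 1 and 2 as well, so its directions were no longer opposite. Insig1 was then not higher in the CRE-labelled BMDC pair numbered 3.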

How the results depend on the processing

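Counts of synthesis genes called moved with the set of libraries and the estimate of the spread. For the response of WT-labelled BMDMs (22) the count was 9 with only the compared groups. For CRE-labelled BMDMs (4) it was 11 with DESeq2, 23 with limma-voom, 7 at an FPKM of at least 5 and 25 with only the compared groups. With all 12 BMDM libraries it was 0 for both responses and for CRE against WT under DMXAA (15), 11 for BMDCs against BMDMs (19) and 0 for the cell type difference in response (1), which was also 0 with only the compared groups. DESeq2 gave 1 for CRE against WT in control BMDMs (0) and 5 for the difference in response between BMDM labels (0), where limma-voom gave 1. Limma-voom gave 16 for CRE-labelled BMDCs (5). The counts with DESeq2, limma-voom and the higher FPKM minimum are given without their shares of all genes. A larger count there is therefore not read as a stronger result for these genes.

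With a replicate block within each label the count was 16 for CRE-labelled BMDMs, given without its share of all genes. It was 8 for the difference in response between BMDM labels, beside 14.7% of all genes. For WT-labelled BMDCs it was 19, beside 24.2% of all genes lower and 24.6% higher. For CRE-labelled BMDCs it was 15, beside 21% lower and 21.7% higher. BMDM control and DMXAA libraries of the same number deviated together with the WT label (r = 0.6561) but not with the CRE label (r = 0.03101). With 2 numbers each label yields only 1 value of r, so the BMDM block is not read as pairing.

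Leaving out 1 library gave ranges of 19 to 25 for WT-labelled and 0 to 0 for CRE-labelled BMDMs, 1 to 16 for CRE against WT under DMXAA, 0 to 4 in control, 0 to 9 for the difference in response, 7 to 11 for WT-labelled and 3 to 10 for CRE-labelled BMDCs, 10 to 18 for BMDCs against BMDMs and 0 to 2 for the cell type difference. In 2 alternatives chosen after seeing the data, leaving out both WT-labelled BMDM libraries numbered 2 gave 25 for CRE-labelled BMDMs, beside 26.3% of all genes, 24 for CRE against WT under DMXAA, 8 in control and 22 for the difference in response, and leaving out both CRE-labelled BMDC libraries numbered 2 gave 10 for CRE-labelled BMDCs. Of 1043 values of single called genes under the alternatives, 841 stayed past the threshold, 202 kept their direction but not the threshold and 0 reversed. The counts from leaving out single libraries, here and in the Results, are given without their shares of all genes. They are therefore not read as results about these genes. The causes were not tested.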
